A study of Mus musculus with 250 samples.

Results

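Glycolytic genes were read out in single cells of mouse tail epidermis as 10 rows of the deposited count table. They are the glucose transporter Slc2a1, the enzymes Hk1, Gpi1, Pfkl, Aldoa, Tpi1, Pgk1, Eno1 and Pkm of the path from glucose to pyruvate, and Ldha, which turns pyruvate into lactate. They were picked by symbol and not by a cut-off on their values, but with earlier results of these data known. Each of the 10 had 1 row among the 27003 gene symbols of the table. Lrig1CreER/Rosa-TdTomato mice were the source of the cells, which were sorted from tail epidermis as carriers of the Lrig1 lineage label and of surface Sca1 and were all taken at 8 weeks with a further time abbreviation that the labels do not spell out. There were 81 cells of a distal memory region (32 in batch 1 and 49 in batch 2), 85 cells of the wound bed (30 and 55) and 84 cells of a control region without memory (28 and 56). The Cre of this line is switched on by a drug in cells that use the Lrig1 promoter, so the label marks the offspring of such cells and not a present state. Each region and batch was 1 plate, so within a batch a difference between regions cannot be told apart from one between plates. No animal is named in the labels, which leaves 1 sample per region and no way to test one region against another.

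Glycolysis splits glucose into pyruvate in the cytosol and yields ATP without oxygen. Glucose enters through carriers such as GLUT1, the product of Slc2a1, which is the main glucose carrier of basal keratinocytes. Hexokinase and phosphofructokinase are its regulated early steps, and lactate dehydrogenase restores the NAD+ that the path consumes. Under low oxygen the factor HIF-1 raises transcription of many of these genes, and epidermis turns much of its glucose into lactate even where oxygen is present.

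Reads per cell ranged from 3857 to 3119120, and the plates summed to 10671470 and 2888806 reads in distal batches 1 and 2, 1751116 and 2898446 in wound bed batches 1 and 2, and 4481121 and 4029606 in control batches 1 and 2. In distal batch 1, 72.8% of all reads sat in 4 cells with more than 500000 each, and the mitochondrial share of the plate was 41.8%, against 23.5% to 31.2% in the other plates. Cells in which predicted repeat-like genes took over 5% of the non-mitochondrial reads numbered 2 and 1 in the distal plates, 0 and 1 in the wound bed plates, and 18 of 28 and 6 of 56 in the control plates. Scaled CPM (scaled counts per 1000000) are the reads of a gene summed over a plate, per 1000000 reads of that plate after scaling by trimmed mean of M-values. All 7 markers of basal epidermis had reads in every plate, and summed markers of melanocytes, leukocytes, fibroblasts and endothelium lay between 0.0 and 21.2 scaled CPM. Summed sebaceous gland markers were at 1283 and 354 scaled CPM in distal cells, 411 and 620 in wound bed cells, and 3097 and 517 in control cells, in batches 1 and 2, and their part in the results was not tested. Summed markers of the upper hair follicle were at 4263 and 6864 scaled CPM in distal cells, 2338 and 12792 in wound bed cells, and 16573 and 28483 in control cells, in batches 1 and 2, and Lrig1 itself had no read in wound bed batch 2. Depth per cell differed widely, so shares of cells are given for cells thinned to 10000 reads, which 238 of the 250 cells had.

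Per kilobase of transcript, Ldha was the most abundant of the 10 transcripts, at 131.8 ± 34.5 scaled CPM per kilobase (SD over the 6 plates). Aldoa followed at 97.9 ± 34.1, Tpi1 at 65 ± 20.7, Eno1 at 39.3 ± 14.1, Pkm at 33.5 ± 10.9 and Pgk1 at 27.7 ± 22 scaled CPM per kilobase. Gpi1 was at 17.99 ± 7.92 and Slc2a1 at 17.98 ± 18.9, while Hk1 at 2.53 ± 2.81 and Pfkl at 1.61 ± 1.75 scaled CPM per kilobase stood at the bottom. The plate ranges of each adjacent pair in this order overlapped. Within each of the 6 plates, however, Tpi1 stood above Eno1 and Slc2a1 above Hk1. The remaining neighbours changed order in at least 1 plate. Gapdh, the enzyme between Tpi1 and Pgk1 and not one of the 10, was at 156.6 ± 38.9 scaled CPM per kilobase.

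At 10000 reads per cell Ldha was detected in 132 of 238 cells (55.5%, 95% exact interval 48.9% to 61.9%). The next were Tpi1 in 43.3%, Aldoa in 40.3%, Eno1 in 36.1% and Pkm in 33.6% of cells, and Gapdh was detected in 71%. Hk1 was detected in 5.46% and Pfkl in 3.78% of cells, so at this depth most cells gave no read of either enzyme, which does not show that they lacked it. A thinned cell held reads of a median of 3 of the 10 genes in distal batch 1, 4 in distal batch 2, 3 in both wound bed plates, and 2 and 3 in control batches 1 and 2. No read of any of the 10 was found in 19 of the 238 thinned cells. Without thinning, 1 cell had reads of all 10 genes, and it was in distal batch 1. The intervals hold counting error and nothing else: the method marks no molecules, so reads can be copies of each other, and cells of a plate may stem from the same animal.

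**Figure D1:**
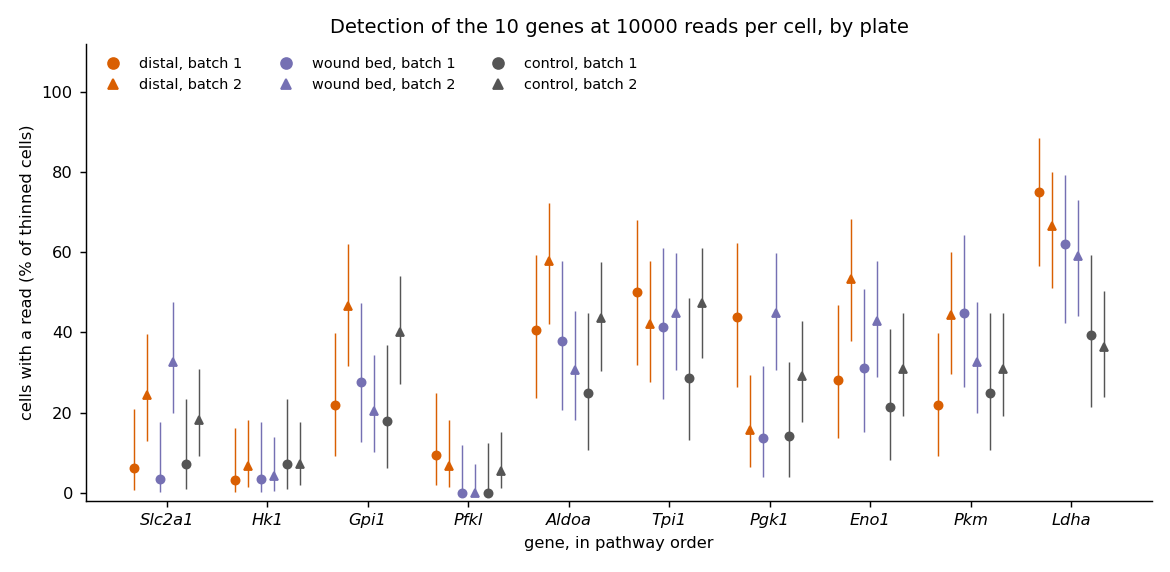
Share of cells with at least 1 read of each gene, in cells thinned to 10000 reads, for each plate (circles, batch 1; triangles, batch 2; bars, exact 95% intervals for counting error). Ldha is the gene on the right with both distal plates (75% and 66.7%) and both wound bed plates (62.1% and 59.2%) above both control plates (39.3% and 36.4%).

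Slc2a1 (chr4:119108711-119137983, + strand; all gene positions are from GENCODE M21 on GRCm38) had 181 and 42.4 scaled CPM in distal batches 1 and 2, 21.6 and 54 in wound bed batches 1 and 2, and 14.7 and 38 in control batches 1 and 2. The high value of distal batch 1 was that of 1 cell, the deepest of the study with 3119120 reads, which held 1314 of the 1368 Slc2a1 reads of its plate (96.1%). The log2 ratio of distal over control, on the scale of scaled CPM plus 1, was accordingly 3.53 in batch 1 and 0.15 in batch 2, and without cells over 500000 reads it was -0.02 in batch 1. The wound bed over control ratios were 0.52 and 0.50, well under a doubling. In batch 1 the wound bed ratio turned to -0.39 without repeat-rich cells and to -0.50 in thinned cells, where the batch 2 ratio was 1.45. Detection followed the batch more than the region. In batch 1 a read was found in 6.25% of thinned cells of the distal region, 3.45% of the wound bed and 7.14% of control, while in batch 2 the shares were 24.4% in the distal region, 32.7% in the wound bed and 18.2% in control.

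Hk1 (chr10:62268855-62379908, - strand), the hexokinase that binds mitochondria and phosphorylates glucose, had 30.7 and 7.63 scaled CPM in the distal plates, 5.53 and 2.72 in the wound bed plates, and 1.13 and 10.8 in the control plates. The distal plates stood above the wound bed plates in both batches, with log2 ratios of 2.28 and 1.22, while distal over control ratios ran in opposite directions at 3.89 and -0.45. In distal batch 1, 201 of the 232 Hk1 reads (86.6%) came from 1 cell with 1977308 reads. Without the cell of each plate with the most Hk1 reads, the distal over wound bed ratios were 0.24 and 2.01. Thinned shares were low everywhere, at 3.13% and 6.67% of distal cells, 3.45% and 4.08% of wound bed cells, and 7.14% and 7.27% of control cells. The other broadly used hexokinase gene, Hk2, the form induced by insulin and hypoxia, had 62 and 13 reads in the distal plates, 10 and 7 in the wound bed plates, and 0 and 77 in the control plates.

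Pfkl (chr10:77986947-78010083, - strand), the liver-type phosphofructokinase that commits sugar to the path, had 125 and 31 reads in the distal plates, 2 and 3 reads in the wound bed plates, and 0 and 44 reads in the control plates. In scaled counts it was 14.9-fold higher in distal than wound bed cells in batch 1 (95% exact counting interval 4.05 to 125) and 9.68-fold higher in batch 2 (3.02 to 49.5). Against control, the distal plate of batch 1 was at least 19.4-fold higher, taking 3 reads as the floor of the empty control plate (the exact 95% interval starts at 15.6), and the batch 2 ratio was 0.996 (0.61 to 1.61). As with Hk1, few cells carried these counts. The same cell of distal batch 1 that held most Hk1 reads held 107 of the 125 Pfkl reads (85.6%), and 1 cell of distal batch 2 held 58.1% of that plate's. Without the top cell of each plate the log2 ratios of distal over wound bed were 1.76 and 1.54. After thinning, Pfkl was found in 9.38% and 6.67% of distal cells, in 0 of 29 and 0 of 49 wound bed cells, and in 0 of 28 and 5.45% of control cells. For the wound bed as a whole, 0 of 78 thinned cells corresponds to a limit of 3.85% by the floor of 3 and of 4.62% by the exact 95% interval. Pfkp, the platelet-type isoenzyme, was the more widely read phosphofructokinase, in 31.2% of all unthinned cells against 7.20% for Pfkl.

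Gpi1 (chr7:34201330-34230336, - strand), the isomerase of glucose 6-phosphate, had 35.8 and 75.2 scaled CPM in the distal plates, 45.9 and 27.2 in the wound bed plates, and 42.5 and 84.6 in the control plates. Distal and control cells were close in each batch, with log2 ratios of -0.24 and -0.17, though without the top cell of each plate the batch 1 ratio was 0.73. Wound bed cells were near control in batch 1 (0.11, and -0.94 without repeat-rich cells) and below it in batch 2 (-1.60), where Gpi1 was found in 20.4% of thinned wound bed cells and 40% of control cells.

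Aldoa (chr7:126795234-126800751, - strand), the aldolase that splits the hexose, had 95.2 and 174 scaled CPM in the distal plates, 174 and 96.6 in the wound bed plates, and 123 and 225 in the control plates. The order of the regions thus turned over between batches for the wound bed, whose log2 ratios over control were 0.50 and -1.21, while the distal ratios over control were -0.37 in both. The batch 1 distal ratio turned to 0.29 without cells over 500000 reads, to 0.39 without repeat-rich cells and to 0.73 without the top cell of each plate. The shares of cells did not follow these sums. Aldoa was found in 40.6% and 57.8% of thinned distal cells, in 37.9% and 30.6% of wound bed cells, and in 25% and 43.6% of control cells. In control batch 1 a single cell held 65% of the plate's Aldoa reads. Tpi1 (chr6:124810586-124814296, - strand), the triose phosphate isomerase, had 55.5 and 108 scaled CPM in the distal plates, 96.2 and 125 in the wound bed plates, and 88.7 and 153 in the control plates. The distal over control ratios were -0.67 and -0.50, and the wound bed over control ratios were 0.12 and -0.30. Without cells over 500000 reads the distal ratio of batch 1 turned to 0.43, and with every cell weighted equally to 0.27. Tpi1 was found in 50% and 42.2% of thinned distal cells, 41.4% and 44.9% of wound bed cells, and 28.6% and 47.3% of control cells.

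The promoters of Pgk1 and Ldha are shown because both genes are textbook targets of HIF-1 and were, with Eno1, the members most correlated with the rest of the set described further on. Each sequence is the 250 bases before the start site given by RefSeq on GRCm38.p6, with matches to ACGTG, the core of the hypoxia response element, in capitals on either strand (CACGT on the strand printed), and with overlapping matches, as in CACGTG, marked as 1 run.
Pgk1, chrX:106186850-106187099 (+ strand): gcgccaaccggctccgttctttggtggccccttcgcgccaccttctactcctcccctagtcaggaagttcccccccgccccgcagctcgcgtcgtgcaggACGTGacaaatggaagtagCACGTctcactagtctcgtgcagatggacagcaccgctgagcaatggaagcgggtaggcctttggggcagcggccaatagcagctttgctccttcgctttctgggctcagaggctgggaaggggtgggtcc
Ldha, chr7:46845554-46845803 (+ strand): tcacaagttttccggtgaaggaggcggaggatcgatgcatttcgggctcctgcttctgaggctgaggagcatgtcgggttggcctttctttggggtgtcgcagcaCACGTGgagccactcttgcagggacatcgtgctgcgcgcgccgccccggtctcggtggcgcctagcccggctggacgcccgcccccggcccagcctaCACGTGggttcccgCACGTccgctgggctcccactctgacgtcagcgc
The Pgk1 window held 2 runs and the Ldha window shown 3, while a second Ldha window of the table, chr7:46846832-46847081, held none. Of the 3 runs 2 were the palindrome CACGTG, which is also the E-box bound by MYC and related factors. Over all 32851 promoter windows of the table, 16.6% held the core at least once and 1.95% held 2 or more runs, and 6 of the 17 windows of members held it. Of these 6, 2 were overlapping windows of Aldoa that held the same match. Among the other members a match was found in at least 1 window of Slc2a1, Aldoa and Pkm and in none of Hk1, Gpi1, Pfkl, Tpi1 and Eno1. These are matches of letters in a window and not measured binding sites.

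Pgk1 (chrX:106187100-106203699, + strand), the kinase of the first ATP-yielding step, had 124 and 29.4 scaled CPM in the distal plates, 26 and 70.05 in the wound bed plates, and 17.9 and 35.8 in the control plates. The wound bed was above control in both batches, at log2 ratios of 0.52 and 0.95, but without repeat-rich cells the batch 1 ratio turned to -0.37 (0.89 in batch 2). The distal ratios over control were 2.73 and -0.28. Distal batch 1 was unusual in breadth as well as level. There 31 of 32 cells had a Pgk1 read, 14 of them with 1 to 3 reads only, while in the other plates 26.7% to 60% of cells had one. A single cell of that plate held 722 of its 937 Pgk1 reads (77.1%), the cell that also led for Hk1, Pfkl, Pkm and Ldha. At equal depth the share in distal batch 1 was 43.8%, close to the 44.9% of wound bed batch 2 and above the 13.8% to 29.1% of the other plates.

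Eno1 (chr4:150236721-150248879, + strand), the enolase of most tissues, had 53.5 and 122 scaled CPM in the distal plates, 86.8 and 58.6 in the wound bed plates, and 55 and 103 in the control plates. Summed levels in distal and control cells were near each other, with log2 ratios of -0.04 and 0.25, and the wound bed ratios over control were 0.65 and -0.80. In batch 1 the distal ratio was 0.88 without cells over 500000 reads, and the wound bed ratio turned to -0.69 in thinned cells. The share of thinned cells with an Eno1 read was 28.1% and 53.3% in distal cells, 31% and 42.9% in wound bed cells, and 21.4% and 30.9% in control cells, so in each batch both regions stood above control in share. Eno1b, a near-identical copy, had 3 to 24 reads per plate, too few to carry the Eno1 values.

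Pkm (chr9:59656368-59679375, + strand), the pyruvate kinase of epidermis, had 51.3 and 67.3 scaled CPM in the distal plates, 61.4 and 85.1 in the wound bed plates, and 120 and 104 in the control plates. All 4 plates of the distal region and the wound bed lay below both control plates. Distal over control ratios were -1.21 and -0.62 on the log2 scale, and wound bed over control ratios -0.96 and -0.28, so neither comparison reached a halving in both batches. In batch 2 the distal ratio was 0.06 in thinned cells, and the wound bed ratio was 0.13 in cells with at least 2000 detected genes. Shares of cells did not run with the sums. At equal depth Pkm was found in 21.9% and 44.4% of distal cells, 44.8% and 32.7% of wound bed cells, and 25% and 30.9% of control cells. In control batch 1, 2 cells held at least 50% of the Pkm reads, and the highest cell there reached 3995 CPM against 433 to 905 CPM for the highest cell of the other plates.

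Ldha (chr7:46841475-46855627, + strand), the main lactate dehydrogenase subunit of epidermis, was the only member whose level and share of cells were both above control in both regions and both batches. It had 264 and 307 scaled CPM in the distal plates, 285 and 206 in the wound bed plates, and 176 and 160 in the control plates. Again no plate of the distal region or the wound bed overlapped the control plates, this time from above. In distal cells the log2 ratios over control were 0.58 and 0.94, or 1.5-fold and 1.92-fold. The wound bed ratios were 0.70 and 0.36, or 1.62-fold and 1.28-fold. Cells with a read were more frequent too, at 75% and 66.7% of thinned distal cells, 62.1% and 59.2% of wound bed cells, and 39.3% and 36.4% of control cells. Over both batches the share was 70.1% in distal cells (exact 95% interval 58.6% to 80.03%), 60.3% in wound bed cells (48.5% to 71.2%) and 37.3% in control cells (27% to 48.7%). The median over all cells of a plate was 196 and 264 CPM in distal cells, 159 and 96.7 CPM in wound bed cells, and 14.3 and 23.6 CPM in control cells.

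The repeat-rich cells of the control region bear on the Ldha values of batch 1. Without repeat-rich cells the batch 1 log2 ratio over control turned to -0.31 for distal cells and to -0.16 for wound bed cells, with 10 control cells left, while the batch 2 ratios were 1.07 for distal cells and 0.44 for wound bed cells. The thinned shares without them were 73.3% and 68.2% in distal cells, 62.1% and 59.2% in wound bed cells, and 50% (18.7% to 81.3%) and 36.7% in control cells. Summed markers of differentiation were also above control in the wound bed in both batches. In distal cells their sum was above control in batch 1 and below it in batch 2. Gene by gene, 3 of the 6 considered were higher in distal than control cells in both batches and 1 was lower. Summed suprabasal markers were at 19678 and 9788 scaled CPM in distal cells, 33189 and 25463 in wound bed cells, and 14659 and 12977 in control cells, and their part in the Ldha difference, like that of the follicle markers given above, was not tested.

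**Figure D2:**
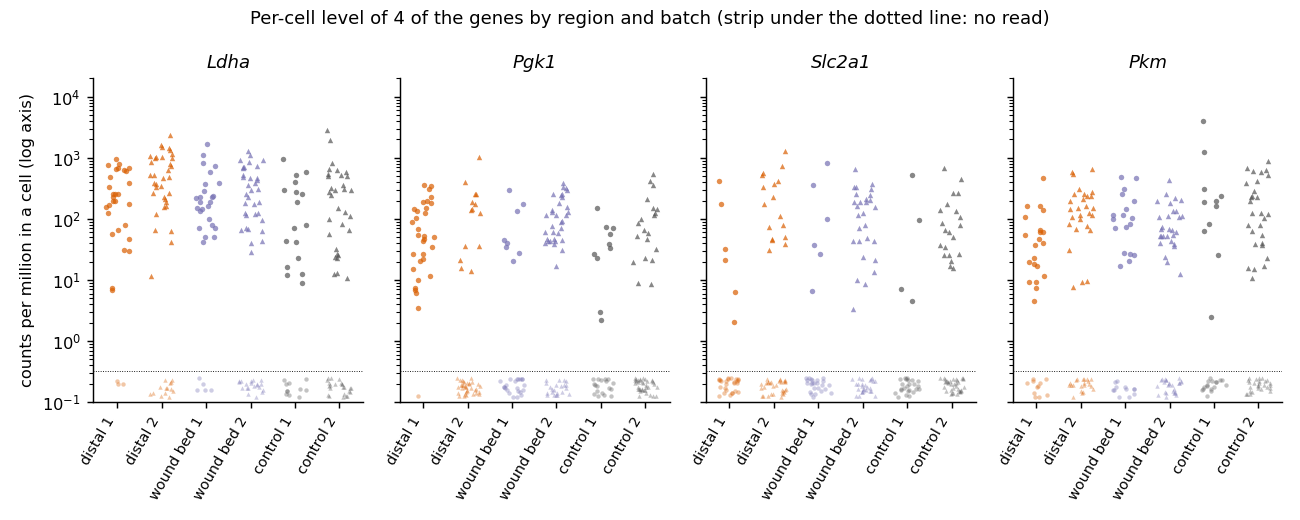
CPM of Ldha, Pgk1, Slc2a1 and Pkm in each single cell by region and batch (log axis; cells without a read lie in the strip under the dotted line). Ldha has 3 of 32 cells in the strip in distal batch 1, Pgk1 has 1 of 32 cells there in distal batch 1, and Slc2a1 lacks a read in most cells of every plate but wound bed batch 2.

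**Figure D3:**
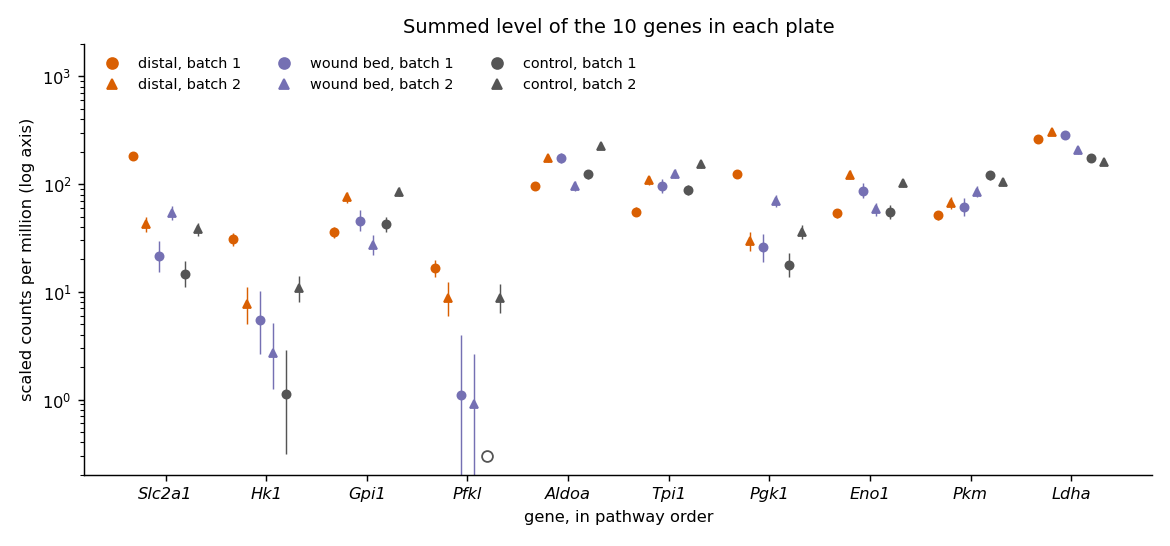
Scaled CPM of each gene in each plate (log axis; circles, batch 1; triangles, batch 2; bars, exact 95% counting intervals; the open symbol is Pfkl in control batch 1, which had no read). Ldha and Pkm are the genes for which the 4 distal and wound bed plates all lie on the same side of both control plates.

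The 10 genes did not move as a block. A gene met the size rule when its ratio was at least 2-fold in the same direction in both batches, and genes were considered when 10% or more of cells had a read in at least 1 of the compared plates of each batch. Between distal and control cells, 0 of the 10 members were higher and 0 were lower by this rule, beside 8.07% and 6.09% of all 6356 genes considered. Their median log2 ratio was 0.43, against 0.06 over all genes considered, but it was 0.27 in batch 1, the same with Pfkl at its bound, and -0.22 in batch 2. Between wound bed and control cells, 0 of 8 considered members were higher and 0 were lower, beside 7.83% and 8.24% of 5776 genes, with a median of -0.08 against -0.02 over all genes. Hk1 and Pfkl were too rarely read to be considered there.

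Between distal and wound bed cells, 2 of the 10 members, Hk1 and Pfkl, were higher by the rule and 0 were lower, beside 9.59% and 5.28% of 6285 genes. The members' median was 0.36, against 0.11 over all genes. Both genes passed the 10% detection minimum through distal plates in at least 1 batch, so that their being higher there is partly fixed by the filter. Pfkl was read in 15.6% and 10.2% of unthinned distal cells and in 3.33% and 5.45% of wound bed cells. Hk1 was read in 25% and 16.3% of distal cells and in 16.7% and 3.64% of wound bed cells. Without cells over 500000 reads Pfkl met the rule (1.90 and 2.38) and Hk1 did not (0.77 and 1.23), and with a 25% minimum neither was considered. The 3 comparisons share plates and are not independent of each other. Summed over the 10 genes, the level was 907 and 942 scaled CPM in the distal plates, 804 and 726 in the wound bed plates, and 639 and 922 in the control plates.

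**Figure D4:**
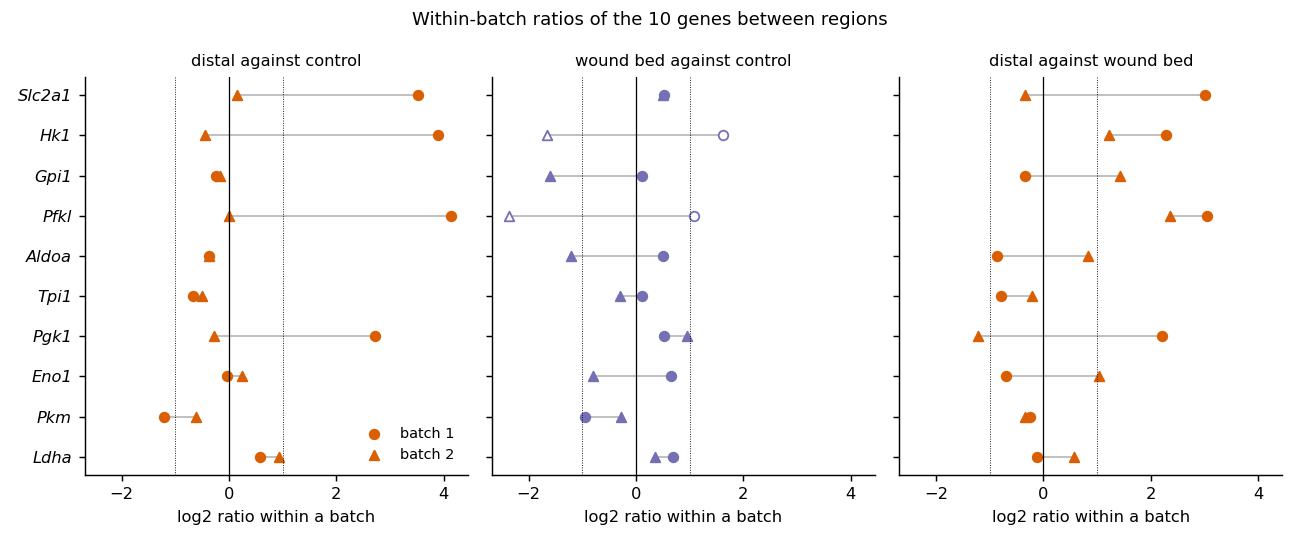
Log2 ratios of the 10 genes within batch 1 (circles) and batch 2 (triangles) for distal against control, wound bed against control and distal against wound bed; grey lines join the batches, dotted lines mark 2-fold, and open symbols are genes too rarely read to be considered. Slc2a1, Hk1, Pfkl and Pgk1 have long lines in the distal panels, and only Hk1 and Pfkl lie past the same dotted line in both batches, in distal against wound bed.

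Shares of cells at equal depth were compared by direction in the same way. Against control, 5 members (Gpi1, Pfkl, Aldoa, Eno1 and Ldha) were found in a larger share of distal cells in both batches and 1 (Hk1) in a smaller share, that is 50% and 10% of members, beside 39.5% and 13.7% of all genes considered. In wound bed cells 3 of the 8 considered members (Eno1, Pkm and Ldha) were in a larger share and none in a smaller one, 37.5% and 0% beside 32.4% and 22.3% of all genes. Set against the wound bed, Pfkl, Aldoa and Ldha were in a larger share of distal cells in both batches and no member in a smaller one, 30% and 0% of members beside 30.9% and 19.7% of all genes.

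The counts and medians of the gene lists that follow stand beside the same background as the members: 8.07% of all considered genes higher and 6.09% lower for distal against control, 7.83% and 8.24% for wound bed against control, and 9.59% and 5.28% for distal against wound bed, with medians of 0.06, -0.02 and 0.11. Isoenzymes and remaining steps of the path were mostly silent or rarely read. Of 20 such genes 16 had a row, 3 had no read in any cell, and Gapdh (86.8% of all cells) and Pfkp (31.2%) were read in at least 25% of cells. Pgam1, the mutase before enolase, had 0 to 55 reads per plate. The brain-type aldolase gene Aldoc met the rule as higher in distal than in control and in wound bed cells, with 62.3 and 65.3 scaled CPM in distal plates, 15.5 and 3.02 in wound bed plates, and 0.57 and 29.6 in control plates, from at most 7 cells per plate. Aldoc passed the 10% detection minimum through distal cells alone, against control in both batches and against the wound bed in batch 2. Its being higher there is thus partly fixed by the filter. Ldhb, whose subunit favours the turn of lactate to pyruvate, was lower in the wound bed than in control and higher in distal than in wound bed cells. It had 24.1 and 118 scaled CPM in distal plates, 11.1 and 16 in wound bed plates, and 89.6 and 64.2 in control plates. In batch 2 Ldhb passed the minimum through control or distal cells alone, which partly fixes the lower place of the wound bed. Counts by the rule over this list were 1 higher and 0 lower of 7 considered for distal against control, 0 and 1 of 5 for wound bed against control, and 2 and 0 of 5 for distal against wound bed. The medians were 0.44, -0.21 and 0.64. Of 7 near-identical copies of the enzymes, such as Eno1b and Pgk1-rs7, 5 had a row, 1 was considered and none met the rule.

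Among regulators of glycolytic genes, Hif1a, which encodes the oxygen-regulated subunit of HIF-1, was most widely read in the wound bed. It had 104 and 62.2 scaled CPM in distal plates, 280 and 196 in wound bed plates, and 206 and 140 in control plates, and it was found in 25% and 28.9% of thinned distal cells, 58.6% and 53.1% of wound bed cells, and 21.4% and 23.6% of control cells. The log2 ratios of distal over wound bed were -1.42 and -1.64, which met the rule, and those of wound bed over control were 0.44 and 0.49. Egln3, the hypoxia-induced hydroxylase that marks HIF for removal, was also lower in distal than in wound bed cells (-1.70 and -1.47). So was the general activator Sp1 (-1.30 and -1.19). Trp53, the gene of the tumour suppressor p53, was higher in distal cells (1.05 and 2.37). Shares of unthinned cells went with the sums for Egln3 (43.8% and 22.4% of distal, 46.7% and 43.6% of wound bed cells). For Sp1 they did not (40.6% and 32.7% of distal, 26.7% and 29.1% of wound bed cells). Trp53 was read in 40.6% and 20.4% of distal, 20% and 21.8% of wound bed, and 14.3% and 19.6% of control cells. Of 8 considered regulators 0 met the rule between distal and control cells, and 1, Trp53, was lower in the wound bed than in control (-1.08 and -1.48). For distal against wound bed the counts were 1 higher and 3 lower of 8. The medians of this list were -0.10 for distal against control, -0.12 for wound bed against control and -0.83 for distal against wound bed, against 0.06, -0.02 and 0.11 over all genes considered. Txnip, the inhibitor of glucose uptake, did not meet the rule in any comparison.

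The hypoxia-induced genes outside the path moved in different directions. Ndrg1, a stress-induced cytosolic protein gene, was higher in distal than in control cells (1.60 and 1.80) and lower in the wound bed than in control (-1.07 and -1.61). Its shares of unthinned cells were close in the wound bed (16.7% and 14.5%) and control (17.9% and 14.3%). P4ha1, a subunit of collagen prolyl hydroxylase, was higher in distal cells than in control (2.48 and 2.29), with 1 cell holding most of its reads in both distal plates. Bnip3, a mitophagy receptor, was higher in the wound bed than in control (1.47 and 2.48), and its relative Bnip3l was lower in distal than in wound bed cells (-1.69 and -1.02). Ndufa4l2, a mitochondrial protein gene induced by HIF-1, had 183 and 25 reads in distal plates, 119 and 105 in wound bed plates, and 0 and 16 in control plates, and met the rule as higher in the wound bed than in control and as lower in distal than in wound bed cells. Over this list, 2 genes were higher and 1 lower of 9 considered for distal against control, the lower one being the rarely read Ddit4. The counts were 2 and 1 of 8 for wound bed against control, and 2 and 2 of 8 for distal against wound bed, and Car12, the membrane carbonic anhydrase, met the rule in none of them. The medians were 1.09, 0.71 and -0.86 in the same order of comparisons.

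Genes that take pyruvate and lactate onward were measured beside the path. Slc16a1, the lactate carrier MCT1, was lower in distal than in control cells (-1.94 and -1.39), but 1 cell held 78.7% and 89.8% of its reads in the control plates. Slc16a1 was read in 28.1% and 16.3% of unthinned distal cells, above the 17.9% and 8.93% of control cells. Dlat, a subunit of pyruvate dehydrogenase, was lower in distal cells than in control (-1.95 and -1.75) and than in the wound bed (-2.17 and -1.58), and Pdha1 of the same complex was lower in the wound bed than in control (-1.04 and -1.95). Shares of unthinned cells went with the sums for Dlat and Pdha1. Mpc2, a subunit of the mitochondrial pyruvate carrier, was lower in distal than in wound bed cells (-1.36 and -2.24). In batch 1, however, Mpc2 was read in 71.9% of unthinned distal and 63.3% of wound bed cells. Its partner Mpc1 and Pdhb, Tkt and Taldo1 did not meet the rule in any comparison. In this list of 33 genes, 14 were considered in each comparison, with 0 higher and 2 lower for distal against control, 0 and 1 for wound bed against control, and 0 and 2 for distal against wound bed. The medians were -0.34, -0.13 and 0.21.

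The tricarboxylic acid cycle, which burns the carbon further, had all its 16 genes considered. None met the rule between distal and control cells. Idh3a, of isocitrate dehydrogenase (1.55 and 1.31), and Suclg2, of succinyl-CoA ligase (1.99 and 2.04), were higher in the wound bed than in control, and Sdha, of succinate dehydrogenase, was higher in distal than in wound bed cells (2.15 and 1.14). Shares of unthinned cells went with the sums for Suclg2 and Sdha. Idh3a in batch 1 was read in 30% of wound bed and 32.1% of control cells. The medians of the cycle genes were -0.01, -0.16 and -0.01 for distal against control, wound bed against control and distal against wound bed. Cs, Idh3b, Idh3g, Ogdh, Sucla2, Suclg1, Sdhb, Fh1, Mdh1 and Mdh2, each read in at least 25% of cells, did not meet it in any comparison. Of 12 cell cycle genes, 3 of 7 considered were higher in the wound bed than in control, beside 7.83% of all genes, and none met the rule in the other comparisons. The cell cycle medians were 0.35, 0.94 and 0.02.

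Within a plate the members were only loosely linked from cell to cell. Over the 45 gene pairs and 6 plates, the mean Spearman rho was 0.11 in the 238 thinned cells, and 177 of 243 plate values that could be formed were positive. No share over pairs of other genes stands beside this count. The mean was 0.16 and 0.18 in the distal plates, 0.08 and 0.12 in the wound bed plates, and 0.01 and 0.08 in the control plates. This order of the regions depended on thinning. In cells as deposited the means were 0.17 and 0.13 in distal, 0.16 and 0.13 in wound bed, and 0.11 and 0.15 in control plates. The control plate was then the highest of batch 2. The values are descriptions without a test, and cells of a plate share library preparation, depth after thinning and the total to which their reads add up. The tightest pair over all plates was Tpi1 with Ldha (mean 0.33, plates 0.13 to 0.51), found together in 68 cells where the shares within plates would multiply to 57.7. Eno1 with Pkm followed (mean 0.31, plates 0.19 to 0.40; 40 cells together beside 30.3). Pfkl with Pgk1 reached 0.31 in the 3 plates where it could be formed, from 7 cells with both. Aldoa with Tpi1, neighbours in the path, had a mean of 0.00 (plates -0.19 to 0.27).

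**Figure D5:**
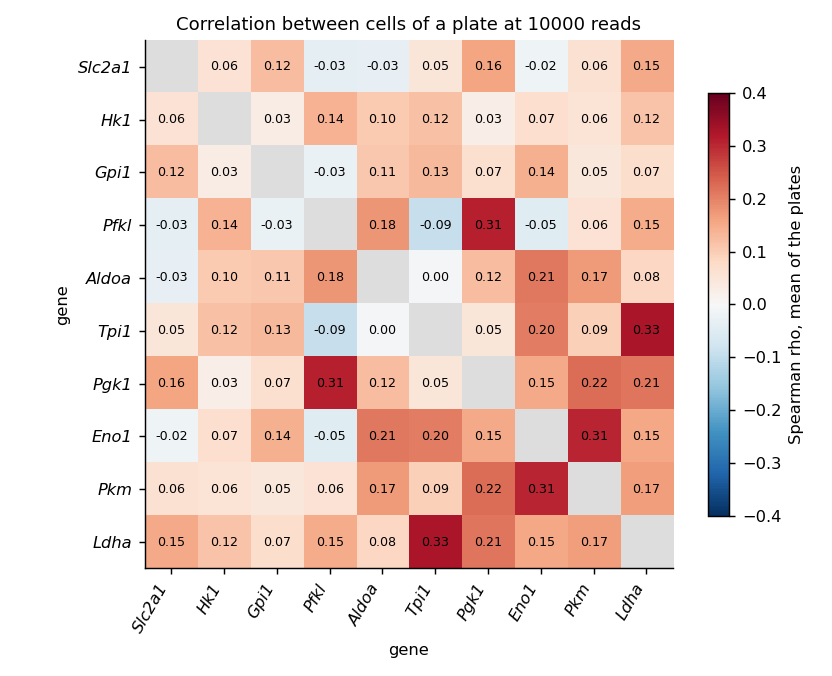
Spearman rho between the genes across cells of a plate in cells thinned to 10000 reads, as the mean of the plates in which it could be formed (colour and printed value; grey, not defined). The largest means are Tpi1 with Ldha (0.33), Pfkl with Pgk1 (0.31) and Eno1 with Pkm (0.31), and the means of Slc2a1 with the other genes reach 0.16 (with Pgk1) and those of Gpi1 0.14 (with Eno1).

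Each gene was also set against the summed reads of the other 9. The mean rho was 0.31 for Pgk1, 0.29 for Ldha, 0.29 for Eno1 and 0.27 for Pkm, and it was 0.10 for both Slc2a1 and Gpi1. The carrier was thus among the members with the lowest means, with plate values from -0.03 to 0.37. In batch 1 its values rest on few cells, as only 1 or 2 thinned cells per plate had an Slc2a1 read. The members' summed reads had a mean rho of 0.37 with Gapdh (0.23 to 0.58 over plates) and 0.38 with the listed isoenzymes and other steps together, which include Gapdh. With other classes the mean was 0.36 for the tricarboxylic acid cycle, 0.35 for basal markers, 0.35 for ribosomal protein genes, 0.22 for hypoxia-induced genes, 0.07 for the cell cycle, and 0.02 each for suprabasal and upper hair follicle markers. Technical measures moved as much: the mean was 0.34 with detected genes after thinning, -0.32 with mitochondrial transcripts and -0.27 with repeat-like genes. Their part in the links between members was not tested.

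Among 117 widely read genes, the 5 whose thinned reads ran most like the members' sum were Anxa2, a membrane-binding annexin (mean rho 0.42, plates 0.23 to 0.57), Atp5b, the catalytic subunit of mitochondrial ATP synthase (0.40), the ubiquitin gene Ubb (0.39), the lipoprotein gene Apoe (0.38) and Lars2, the mitochondrial leucyl-tRNA synthetase (0.38). All 5 were positive in all 6 plates. Of the 117 genes, 80 had a positive mean rho with the members' sum, and the median was 0.07. Gapdh stood at rank 6 of this order. In the distal plates a median thinned cell held 7 and 10 reads of the 10 genes, in the wound bed plates 5 and 7, and in the control plates 4.5 and 9.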

How the data were processed

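Single tail epidermal cells were sequenced by Smart-Seq2, a full-length method without molecular identifiers. The authors deposited whole-number counts of reads per gene symbol and cell. Salmon 0.13.1, R 4.0.3 and Seurat stand in the submitters' processing notes beside the builds mm10 and GRCm38, with no role given for any of them. How transcript estimates became whole counts and whether counting used strand are not given in the sources used here. Reads of near-identical copies of Aldoa, Pgk1 and Eno1 and of processed pseudogenes may be split among them. Hk1os lies antisense to Hk1 and Spsb2 overlaps Tpi1, so shared reads cannot be told apart.

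The 250 cells were grouped by the labels' region and batch into 6 plates. No cell was left out and no doublets were called. Counts were summed per plate, scaled with edgeR 4.0.16 by trimmed mean of M-values (TMM; R 4.3.3) and compared as log2 of scaled CPM plus 1 within each batch. Levels per kilobase used the main GENCODE M21 transcript. Cells were thinned to 10000 reads without replacement. Shares have exact Clopper-Pearson 95% intervals, sums exact Poisson intervals, and a floor of 3 reads stands for a plate without a read. No 2 cells had identical counts. The calculation was tested on simulated counts.

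All 10 members are named. Of other listed genes, those that met the size rule in 1 or more comparisons or had a read in 25% or more of all cells are named. The members and lists were chosen with earlier results of these data known. Alternatives covered scaling, pseudocount, detection minimum, weight and choice of cells, and each batch alone. Leaving out each gene's top cell per plate was chosen after seeing the data. Sequences came from the RefSeq promoter table, in which all 10 members matched.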

Additional observations from a re-analysis of the deposited data

How the results depend on the processing

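With 1 plate per region and batch, the batch alone stands in for leaving out a replicate, and depth limits Hk1 and Pfkl most. The mean share of cells with a read over the members fell with thinning to 33.8% in distal, 29.5% in wound bed and 25.4% in control cells, against 50.6%, 43.4% and 39.4% as deposited. The median of distal over control was -0.20 with a 25% detection minimum and -0.088 in thinned cells, each over 7 considered members. It was -0.22 in batch 2 alone, against 0.43, both over 10. The 25% minimum left every ratio as it was and left out Slc2a1, Hk1 and Pfkl. The median of wound bed over control was -0.67 over 7 members in thinned cells and 0.52 over 9 in batch 1 alone, against -0.08 over 8. In batch 1 alone, 4 members were higher and 1 lower in distal than in control, and 1 was higher in the wound bed than in control. In batch 2 alone, 2 members were lower in the wound bed than in control. For distal over wound bed, batch 1 alone gave 4 higher, and batch 2 alone 4 higher and 1 lower. The 2 higher members there became 0 with a pseudocount of 10 CPM, a 25% minimum or thinned cells, and 1 with equal weight per cell, cells of at least 2000 genes, no cells over 500000 reads or each top cell left out. With a 25% minimum and in thinned cells both fell under the detection minimum and were not considered. In thinned cells Pfkl had a read in 9.38% and 6.67% of distal cells and in no wound bed cell. The mean log2 ratio of Hk1 over the 2 batches turned to -0.25 there in thinned cells, negative in batch 1 and positive in batch 2. The 25% minimum changed only which members were considered, and for the other moves the cause was not tested. Scaling by total counts moved the all-gene median from -0.02 to 0.10 for wound bed over control and from 0.11 to -0.08 for distal over wound bed, where 479 genes were then higher and 484 lower (603 and 332 with TMM). Of the summary values under the alternatives, 119 held and 22 moved. A tally of single-gene values counted 391 as held, 58 as moved and 1 as reversed. It does not count each change of sign within 1 batch, of which several are given above. No paired analysis was possible because the results come from no test, and every ratio was already taken within a batch.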
